A study of Mus musculus with 8 samples.

Results

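miR-33-5p, miR-378a-3p and miR-378a-5p are mature miRNAs cut from the introns of 2 genes of energy and sterol metabolism, and they made up 3 of the 862 small RNA names listed over the series. They were taken by name from the table of each library, and all 3 were listed in each of the 8 libraries. The livers came from male C57BL/6J mice, 8 weeks old at the start and housed singly, on a diet of 12 weeks. Under caloric restriction (CR) food was cut by 20% in week 1 and by 40% over the following 11 weeks, and control mice ate ad libitum (AL). Small RNA was sequenced from liver mitochondria purified as mitoplasts, in 3 CR and 3 AL libraries, and from whole liver, in 1 CR and 1 AL library. Each whole-liver library was a pool of equal amounts of 3 RNA samples of its diet. The labels do not tie the mitochondrial replicates to animals, so p-values measure only the spread between these libraries, which may be technical.

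A miRNA inside an intron, on the strand of its host gene, can be transcribed with that gene. The hairpin is trimmed to a duplex whose 5p and 3p arms can each be loaded into an Argonaute protein. Srebf2 encodes SREBP-2, the transcription factor that switches on cholesterol synthesis and uptake, and miR-33-5p from its intron represses the cholesterol exporter Abca1 and, in liver, enzymes of fatty acid oxidation such as Cpt1a and Crot. Ppargc1b encodes PGC-1β, a coactivator of mitochondrial and lipid genes. In mice lacking miR-378a, work on both arms named the mitochondrial enzyme Crat as a target of the 3p arm and the Mediator subunit Med13 as a target of the 5p arm. Host mRNAs were not measured in these small RNA libraries.

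The Mir33 hairpin lies on the plus strand at chr15:82198122-82198190 (GRCm38) in intron 16 of the 19-exon principal transcript of Srebf2, and touches no annotated exon of that gene. The miR-378a hairpin lies in intron 1 of the 12-exon principal transcript of Ppargc1b, on the strand of its host.

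The RefSeq table of miRNA sequences (GRCm38.p6) matched 1 of the 3 members, and the miR-33 sequences are shown because the 2 arms of this hairpin are counted as separate names. In the hairpin, capitals mark the 2 mature arms, and in each mature arm they mark the seed, bases 2 to 8, which pairs with target mRNAs.
Mir33 hairpin: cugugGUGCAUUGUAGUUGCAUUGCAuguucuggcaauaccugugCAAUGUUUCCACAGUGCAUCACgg
miR-33-5p: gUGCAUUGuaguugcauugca
miR-33-3p: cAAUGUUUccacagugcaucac
By the sequences deposited beside all 862 names, no other name had the seed of miR-33-5p or of miR-378a-5p. The mature miR-378a-3p is nearly shared with names from other hairpins: miR-378c has the same seed and differs from it at 1 of 21 bases, miR-378d differs at 1 of 21 aligned bases, and miR-378b at 1 of 20. Reads of this family may therefore have been split between near-identical names.

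Levels are the deposited reads per 1000000 miRNA reads of a library (RPM). The CR and AL mitochondrial libraries held 1070762 to 1577691 miRNA reads and the whole-liver pools 2431564 to 3242002, so a single read was worth 0.308 to 0.934 RPM. Hepatocyte marker miRNAs took 61.7% to 75.2% of CR mitochondrial reads and 60.9% to 66.6% of AL mitochondrial reads, against 59.0% in the CR pool and 49.9% in the AL pool. The largest part was miR-122-5p, with 251755 to 580803 RPM in mitochondria, against 262739 and 254251 RPM in the CR and AL pools. Other names of this list differed in direction. miR-101a-3p, miR-101b-3p and miR-192-3p lay above both pools in each mitochondrial library. So did miR-101b-5p, but near the floor, with 0.634 to 3.74 RPM against 0 RPM in the CR pool and 0.411 RPM in the AL pool. miR-192-5p, miR-122-3p, miR-148a-5p and miR-194-2-3p lay below both pools in each. Intervals on levels are 95% exact Clopper-Pearson intervals and cover counting error only. RPM are shares of a library, so in these tissue extracts fewer cells of a type and less of a miRNA per cell cannot be told apart.

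The 3 members stood in the same order in each library, with miR-378a-3p far above miR-378a-5p and miR-33-5p lowest. By RPM miR-378a-3p was the 9th to 12th most abundant name in CR mitochondria and the 7th to 12th in AL mitochondria, against the 26th in the CR pool and the 20th in the AL pool. miR-378a-5p ranked between 105 and 130 over all libraries, and miR-33-5p between 187 and 261. Their mature forms all have 21 or 22 bases.

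miR-378a-3p was higher in mitochondria than in whole liver. It stood at 11562, 29037 and 21574 RPM in CR mitochondria (replicates 1 to 3), with 15055, 41047 and 26186 RPM in AL mitochondria, against 4220 RPM in the CR pool and 5988 RPM in the AL pool. All 6 mitochondrial libraries lay above both pools, as for 14.9% of the tested names (42.0% lay wholly above or below). On the deposited scale replicate 1 of each diet was the lowest of its group and replicate 2 the highest. Mean levels were 20725 ± 8769 RPM in CR mitochondria and 27429 ± 13041 RPM in AL mitochondria (SD, n = 3 each), 4.91 times the CR pool and 4.58 times the AL pool. Fitted with limma-trend to log2(RPM + 1) of the 8 libraries, diet included as a covariate, the change was 4.40-fold (95% interval 2.41 to 8.02; log2 fold change 2.14, SE 0.41, adjusted p = 0.000609). This fit assumes that the pools vary as the mitochondrial libraries do.

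miR-378a-5p, the other arm of the same hairpin, was at lower levels in mitochondria than in whole liver and missed the threshold. It stood at 59.1, 64.7 and 74.7 RPM in CR mitochondria, with 63.7, 55.7 and 64.0 RPM in AL mitochondria, against 121 RPM in the CR pool and 109 RPM in the AL pool. On the deposited scale all 6 mitochondrial libraries lay below both pools, which held for 27.1% of the tested names. miR-122 took 58.1% of the reads of CR replicate 3, against 26.3% and 25.5% in the CR and AL pools. With miR-122 left out of the total, CR replicate 3 would lie above both pools. Mean levels were 66.2 ± 7.91 RPM in CR mitochondria and 61.1 ± 4.69 RPM in AL mitochondria (SD, n = 3 each), or 0.549 and 0.563 times the pool of the same diet. The log2 fold change, mitochondria over whole liver, was -0.84 (SE 0.33, limma-trend adjusted p = 0.0579; 95% interval -1.53 to -0.15).

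miR-33-5p stood at few reads in both fractions. It had 15.0, 5.70 and 8.41 RPM (18, 9 and 9 reads) in CR mitochondria, with 7.38, 7.31 and 4.22 RPM (8, 8 and 6 reads) in AL mitochondria, against 18.8 RPM (61 reads) in the CR pool and 7.81 RPM (19 reads) in the AL pool. On the deposited scale each mitochondrial library lay below the pool of its own diet, a pattern not counted over all names. AL replicates 1 and 2 did so only at 0.945 and 0.935 times the AL pool, inside its counting interval (4.70 to 12.2 RPM). CR mitochondrial replicates 1 and 3 lay above the AL pool, so the fractions overlapped. The log2 fold change was -0.64 (SE 0.48, limma-trend adjusted p = 0.316; 95% interval -1.64 to 0.36). The 95% interval of the level in CR replicate 1 was 8.88 to 23.7 RPM and that in AL replicate 3 was 1.55 to 9.18 RPM, so single libraries fix this level only to within several-fold.

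Of the 3 members, 1 passed as higher in mitochondria and 0 as lower (2 at an unadjusted p under 0.05), where limma-trend called 10.6% of the 417 tested names higher and 21.6% lower. The higher and lower calls, 44 and 90 on the deposited scale, became 75 and 67 with TMM factors, and the median over the tested names moved to 0.01 on the log2 scale, from -0.31 as deposited. Relative to the deposited-scale median the log2 fold changes were 2.44 for miR-378a-3p, -0.54 for miR-378a-5p and -0.34 for miR-33-5p. With TMM factors they were 2.57, -0.41 and -0.25, and their signs held under each scaling tried.

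**Figure D1:**
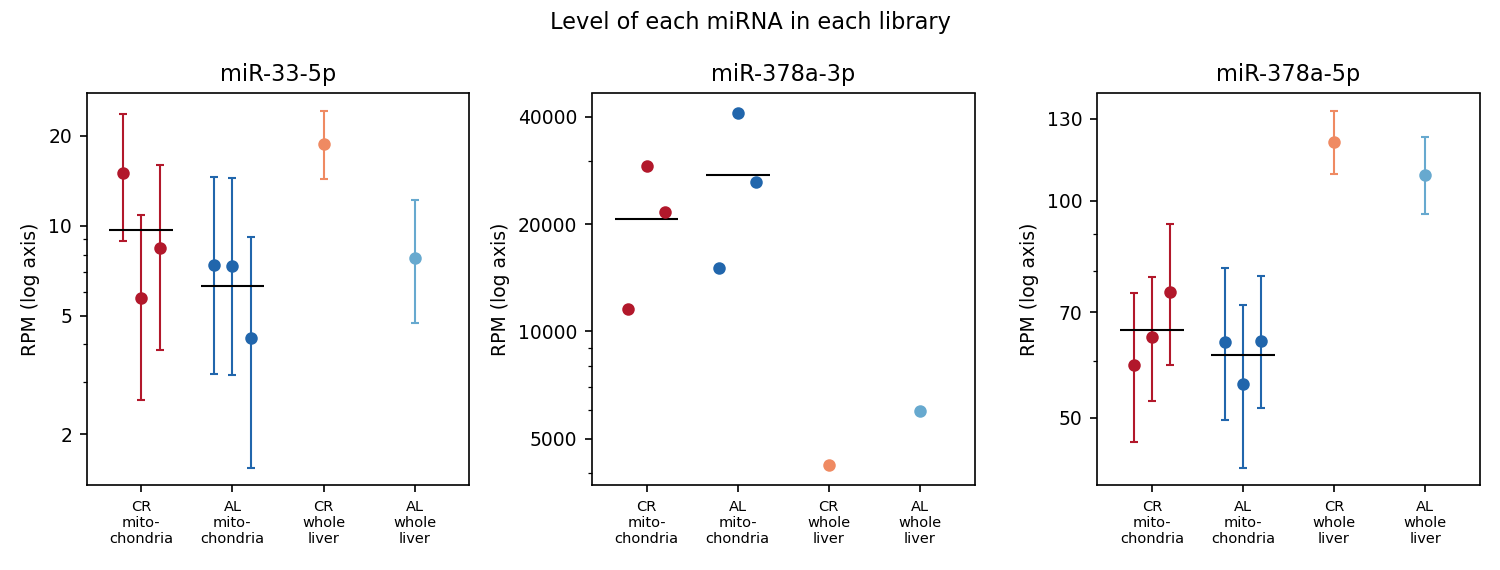
RPM (log axis) of miR-33-5p, miR-378a-3p and miR-378a-5p in each library, with 95% exact counting intervals and a bar at the mean of each mitochondrial group. The 6 mitochondrial points lie above both pools for miR-378a-3p (11562 to 41047 against 4220 and 5988 RPM) and below both for miR-378a-5p, while those of miR-33-5p overlap with the pools.

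The near-identical family names followed miR-378a-3p. miR-378c averaged 4595 ± 1810 RPM in CR mitochondria and 5320 ± 2301 RPM in AL mitochondria (SD, n = 3 each), against 1063 RPM in the CR pool and 1357 RPM in the AL pool. It rose in mitochondria with a log2 fold change of 1.95 (SE 0.38, limma-trend adjusted p = 0.000645). miR-378b averaged 64.4 ± 17.4 RPM in CR mitochondria and 82.9 ± 10.4 RPM in AL mitochondria (SD, n = 3 each), against 10.5 and 21.4 RPM in the CR and AL pools. It rose as well (2.19, adjusted p = 0.000153). miR-378d rests on 0 to 7 reads a library (1.59, adjusted p = 0.0307). For each 100 reads named miR-378a-3p there were 21.3 to 23.1 reads named miR-378c in CR mitochondria, 18.9 to 21.4 in AL mitochondria, 25.2 in the CR pool and 22.7 in the AL pool. How reads were assigned between these names is not given in the sources used here. Summed, miR-378a-3p, b, c and d came to 25387 ± 10584 RPM in CR mitochondria and 32837 ± 15350 RPM in AL mitochondria (SD, n = 3 each), 4.79 times the CR pool and 4.46 times the AL pool. miR-378a-3p itself made up 79.7% to 83.9% of this sum in each library, so the ratios of the sum largely restate its own.

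The passenger of the miR-33 hairpin, miR-33-3p, was barely detected. It had 0, 3 and 0 reads in CR mitochondria and 3, 3 and 1 reads in AL mitochondria, against 10 in the CR pool and 7 in the AL pool. In CR replicates 1 and 3 the count of 0 allows up to 2.50 and 2.80 RPM by a floor of 3 reads (the exact 95% interval reaches 3.07 and 3.45 RPM), so no level could be set for this arm there. Its log2 fold change, mitochondria over whole liver, was -0.97 (SE 0.60, limma-trend adjusted p = 0.228).

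**Figure D2:**
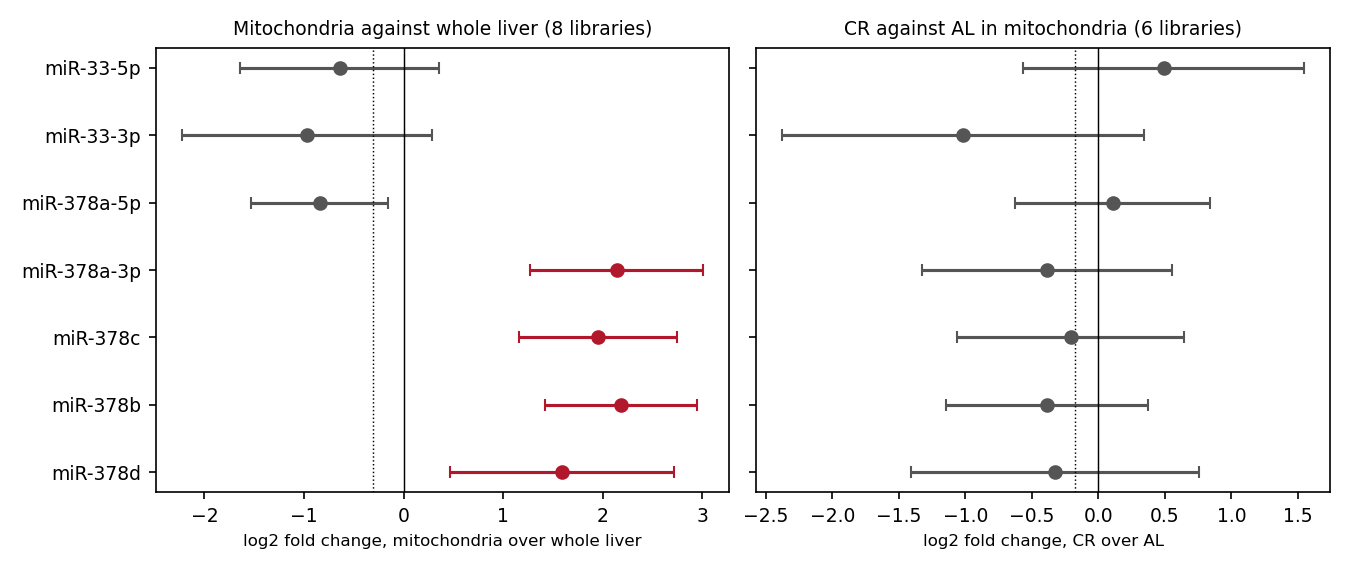
Log2 fold changes (points) with 95% limma-trend intervals (bars) for the members and the other names of their hairpins or families, mitochondria over whole liver at the left and CR over AL in mitochondria at the right. Red marks an adjusted p under 0.05 and the dotted line the median of all tested names (-0.31 and -0.17). miR-378a-3p, b, c and d lie above 0 at the left, and no interval at the right excludes 0.

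The proportion of the 2 arms of the miR-378a hairpin did not overlap between the fractions. For each miR-378a-5p read there were 196, 449 and 289 miR-378a-3p reads in CR mitochondria, with 236, 737 and 409 in AL mitochondria, against 34.99 in the CR pool and 55.1 in the AL pool. Put as a share, the 5p arm was 0.136% to 0.509% of the reads of both arms in mitochondria, against 2.78% in the CR pool (95% interval 2.51% to 3.06%) and 1.78% in the AL pool (1.57% to 2.01%). All 6 mitochondrial libraries had a higher 3p-to-5p proportion than both pools. The log2 difference of the arms averaged 8.42 ± 0.70 in mitochondria (SD, n = 6) and 5.44 ± 0.46 in the pools (SD, n = 2), a difference of 2.98, or 7.89-fold. The exact two-sided permutation p was 0.0714, which is the smallest that 6 against 2 libraries allow.

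Differences between arms across fractions were common. Of 111 hairpins with both arms tested, 52 (46.8%) had arm proportions that did not overlap between mitochondria and pools, and miR-378a ranked 15th by the size of its difference. The median size over these hairpins was 0.99 on the log2 scale. Within mitochondria the arm difference of miR-378a averaged 8.18 ± 0.60 under CR and 8.67 ± 0.82 under AL (SD, n = 3 each), with overlapping libraries. CR minus AL was -0.50. The two-sided exact permutation test gave p = 0.5, and 3 against 3 libraries allow no p below 0.1. In the pools it stood at 5.12 under CR and 5.77 under AL.

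**Figure D3:**
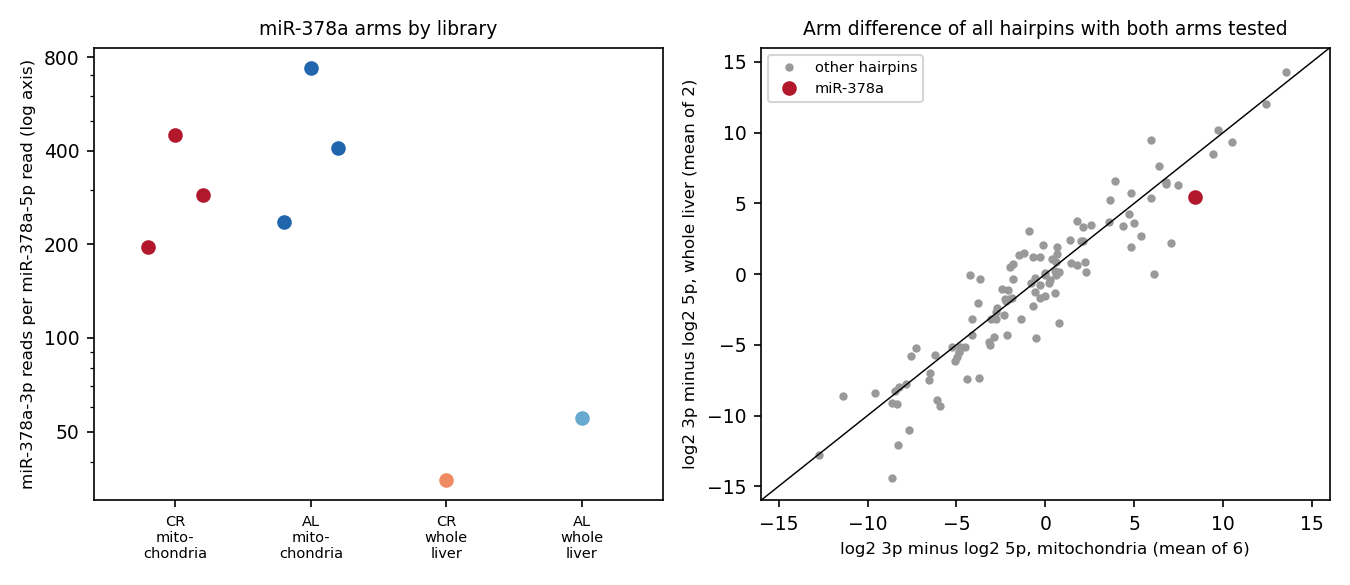
Left, miR-378a-3p reads for each miR-378a-5p read in each library (log axis). Right, the log2 level of the 3p arm minus that of the 5p arm for 111 hairpins, with the mean of the 6 mitochondrial libraries across the page, the mean of the 2 pools up the page and the line of equality. The mitochondrial libraries hold 196 to 737 reads of the 3p arm for each 5p read and the pools 34.99 and 55.1, which puts miR-378a below the line.

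Within mitochondria the level of miR-378a-3p varied with that of muscle miRNAs on the deposited RPM scale. miR-378a is also known as an abundant miRNA of skeletal and cardiac muscle. The 7 listed names of the muscle markers miR-1a, miR-133a, miR-133b, miR-206 and miR-499 summed to 18.3, 132 and 63.5 RPM in CR mitochondria, with 19.4, 163 and 78.7 RPM in AL mitochondria, against 38.6 RPM in the CR pool and 29.2 RPM in the AL pool. Replicates 2 were the highest and replicates 1 the lowest in both diets, as for miR-378a-3p. This shared order depends on the scale, as miR-122 took 53.3%, 25.2% and 58.1% of the reads of CR replicates 1 to 3. With miR-122 left out of the total, CR replicate 3 would be the highest of its group for miR-378a-3p. CR replicate 2 would stay the highest for the muscle sum. No names of miR-208a or miR-208b were listed, and 2 to 4 of the 7 listed names stood at 0 in a given library. Most of the sum was miR-1a-3p, with 15.8, 119 and 54.2 RPM in CR mitochondria and 15.7, 147 and 69.6 RPM in AL mitochondria, against 33.0 and 24.3 RPM in the CR and AL pools. Replicate 1 of each diet lay below both pools in muscle markers, and held 2.74 times (CR) and 2.51 times (AL) the miR-378a-3p level of the pool of its diet. The part of muscle RNA in the spread of miR-378a-3p between replicates was not tested. The marker lists of other cells differed in direction. The 10 leukocyte and Kupffer names summed to 2962 to 4842 RPM in CR mitochondria and 8035 to 11013 RPM in AL mitochondria, against 714 RPM in the CR pool and 1033 RPM in the AL pool, with 1 to 3 names at 0 in a library. Nearly all of this sum was miR-146a-5p, with 2763 to 4626 RPM in CR mitochondria and 7609 to 10740 RPM in AL mitochondria, against 390 RPM in the CR pool and 630 RPM in the AL pool. The leukocyte names miR-142a-5p, miR-223-3p and miR-155-5p were not above both pools throughout, and miR-223-3p was below the AL pool in all 6 mitochondrial libraries. The 9 stellate cell and fibroblast names summed to 25662 to 44663 RPM in CR mitochondria and 35621 to 47454 RPM in AL mitochondria, against 15881 RPM in the CR pool and 14710 RPM in the AL pool, with 0 at 0. Here nearly all of the sum was miR-143-3p, with 24373 to 43460 RPM in CR mitochondria and 32532 to 44651 RPM in AL mitochondria, against 13104 RPM in the CR pool and 11712 RPM in the AL pool. The stellate names miR-145a-3p, miR-145a-5p and miR-199a-5p were below both pools in all 6 mitochondrial libraries. The 2 endothelial names of miR-126a summed to 6707 to 18066 RPM in CR mitochondria and 6694 to 9437 RPM in AL mitochondria, against 14978 RPM in the CR pool and 19607 RPM in the AL pool, with 0 at 0. The erythroid sums of the fractions overlapped. The part of these cells in the miR-378a-3p level was not tested.

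**Figure D4:**
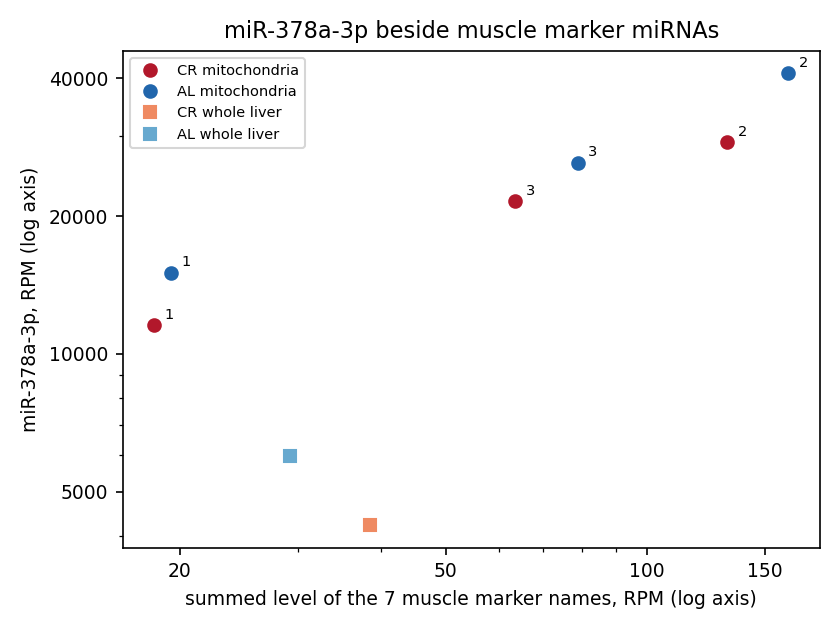
miR-378a-3p against the summed level of the 7 muscle marker names in each library, in RPM on log axes, with mitochondrial replicates numbered. On this deposited scale both are lowest in mitochondrial replicate 1 (18.3 RPM of muscle markers under CR, 19.4 under AL) and highest in replicate 2 (132 under CR, 163 under AL). The pools have a higher muscle marker RPM than replicates 1 and the lowest miR-378a-3p.

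The diet comparison in mitochondria asked which miRNAs of the organelle respond to caloric restriction, and none of the 3 members passed. For miR-378a-3p the CR and AL libraries overlapped, and 2 of the 3 CR libraries lay above the lowest AL library. Its log2 fold change, CR over AL, was -0.39 (SE 0.45, limma-trend adjusted p = 0.761), and the 95% interval ran from 0.398-fold to 1.47-fold. miR-378a-5p overlapped too and was the tightest of the members, with a highest mitochondrial level 1.34 times the lowest on the deposited scale. That range would be wider with miR-122 left out of the total. The log2 fold change of miR-378a-5p was 0.11 (SE 0.35, adjusted p = 0.922; interval 0.649-fold to 1.79-fold). For miR-33-5p, CR replicates 1 and 3 lay above all AL libraries and CR replicate 2 within their range, with means of 9.70 ± 4.77 RPM under CR and 6.30 ± 1.81 RPM under AL (SD, n = 3 each). Its log2 fold change was 0.49 (SE 0.50, adjusted p = 0.722; interval 0.677-fold to 2.92-fold), and 0.15 without CR replicate 1, the library with 18 reads.

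Over all names this comparison made 2 calls among 391 (0.512%), 0.256% higher and 0.256% lower under CR. Diet groups did not overlap for 19.4% of the names, with CR above AL for 5.12% and below for 14.3%, and they overlapped for all 3 members. Of the members 0 were called and 0 had an unadjusted p under 0.05, and edgeR, DESeq2 and limma-voom on the recovered reads called 0 of them. Over the 391 names the median was -0.17 (log2) on the deposited scale and -0.01 with TMM factors. Relative to the deposited-scale median the members' values were -0.21 for miR-378a-3p, 0.28 for miR-378a-5p and 0.66 for miR-33-5p. Each member's interval includes no change, and none was narrow enough to show that the diets act alike on it.

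In whole liver the members differed between the pools in different directions, with 1 pool per diet and therefore no test. miR-33-5p stood at 18.8 RPM in the CR pool and 7.81 RPM in the AL pool, a 2.41-fold ratio (95% exact interval 1.42 to 4.27, conditional on the reads of both pools). This is 1 of 13 names at least 2-fold higher in the CR pool among the 243 names with at least 10 RPM in a pool (5.35%), where 7.82% were at least 2-fold lower. miR-33-3p had 3.08 RPM in the CR pool and 2.88 RPM in the AL pool, a ratio of 1.07 (0.368 to 3.32), so the guide and passenger intervals overlap. miR-378a-3p stood at 4220 RPM in the CR pool and 5988 RPM in the AL pool, a ratio of 0.705 (0.688 to 0.721), and miR-378c at a ratio of 0.783 (0.746 to 0.822). These intervals cover counting error only, and other scalings moved the ratio of miR-378a-3p above its interval, up to 0.820. miR-378a-5p stood at 121 RPM in the CR pool and 109 RPM in the AL pool, a ratio of 1.11 (0.948 to 1.30). The median log2 ratio of the 243 names was -0.22 on the deposited scale, against a log2 ratio of -0.50 for miR-378a-3p and 0.15 for miR-378a-5p.

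The diet changes of the fractions were compared by their interaction over all 8 libraries. The CR over AL change in mitochondria minus that in whole liver was -0.68 for miR-33-5p (SE 1.01, limma-trend adjusted p = 0.998), 0.12 for miR-378a-3p (SE 0.88) and -0.04 for miR-378a-5p (SE 0.70), the last 2 with the same adjusted p. The sign of the last turned with TMM factors (0.14) and DESeq2 size factors (0.033). Of 417 names 0.0% were called by limma-trend, with 5 at an unadjusted p under 0.05, and edgeR, DESeq2 and limma-voom made 0 calls too. The intervals are wide: that of miR-33-5p ran from -2.80 to 1.45 on the log2 scale.

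Related miRNAs give the setting of these values. Of 29 tested names of miRNAs known to act on cholesterol export, lipoproteins or their receptors, 0 were called between diets in mitochondria, with a median log2 fold change of -0.18 beside -0.17 over all 391 names. Both arms of miR-33 are among the names of this list. The smallest p belonged to miR-96-5p, which targets the HDL receptor in human cells, with 21.2 RPM in CR and 6.64 RPM in AL mitochondria (log2 fold change 1.67, adjusted p = 0.108), and to the p53-induced miR-34a-5p, with 33.4 RPM in CR and 87.4 RPM in AL mitochondria (-1.30, adjusted p = 0.118). Next was miR-185-5p, with 307 RPM in CR and 602 RPM in AL mitochondria (-0.99, adjusted p = 0.161). Between fractions 1 of 31 rose and 12 fell in mitochondria (41.9% called, beside 32.1% of all 417 names), with a median of -0.78 beside -0.31 over all names. Either arm of a miRNA was counted, so the calls include less abundant arms such as miR-106b-3p, miR-148a-5p, miR-27a-5p and miR-24-2-5p. The more abundant miR-106b-5p, miR-148a-3p, miR-27a-3p and miR-24-3p were not called, while miR-27b-3p, miR-30c-5p and miR-455-5p were. Those lower included miR-27b-3p, a regulator of lipid genes in liver, with a log2 fold change of -1.96 (adjusted p = 0.000153), miR-30c-2-3p (-2.88, adjusted p = 5.12e-06), miR-125a-5p (-2.51, adjusted p = 5.29e-05) and miR-128-3p (-1.52, adjusted p = 0.00826). The one that rose was miR-24-2-5p (1.01, adjusted p = 0.0382).

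Of 12 tested names (either arm) of miRNAs linked to mitochondrial and oxidative metabolism, 0 were called between diets (median -0.28, beside -0.17). Both arms of miR-378a are among the names of this list. The smallest p was that of miR-181a-5p (-0.71, limma-trend adjusted p = 0.360), with miR-149-5p at -0.77 and miR-338-3p at -0.78. Between fractions 1 of 13 rose, miR-378a-3p itself, and 1 fell, miR-181a-5p (-1.28, adjusted p = 0.00436), or 15.4% called beside 32.1% of all names, with a median of -0.12 beside -0.31. The intron-borne miRNAs of metabolic genes were few. Of 10 tested names (miR-33, miR-378a, miR-103, miR-107, miR-335 and miR-139), 0 were called between diets. Between fractions 1 rose, miR-378a-3p, and 3 fell (40% called, beside 32.1% of all names). These were miR-335-3p from Mest (-3.64, adjusted p = 8.13e-05), and miR-103-3p (-1.22, adjusted p = 0.00823) and miR-107-3p (-0.93, adjusted p = 0.0480) from introns of the Pank genes of coenzyme A synthesis. The other arm, miR-335-5p, was the more abundant of the hairpin in mitochondria and was not called (0.55, limma-trend adjusted p = 0.244). The smallest p between diets were those of miR-335-5p (-0.63, adjusted p = 0.499), miR-139-3p (-0.82) and miR-33-3p (-1.02).

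Among all names whose RefSeq position lies in an intron of a protein-coding gene on the same strand, with both arms of miR-378a added, 141 were tested between fractions. Of these 9 rose and 34 fell (30.5%, beside 32.1% of all tested names), with a median log2 fold change of -0.43. Between diets 0 of 135 were called, with a median of -0.16 beside -0.17.

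The names most like each member over the 8 libraries are given as a description, by Pearson's r of log2(RPM + 1) over 416 other names, since libraries share their fraction and scale. miR-33-5p was most like the erythroid miR-451a (r = 0.94), followed by miR-669a-5p (0.85), miR-434-3p (0.79), miR-21a-3p (0.78) and miR-467e-5p (0.77). miR-451a stood at 48.3, 19.6 and 29.0 RPM in CR mitochondria, with 33.2, 25.6 and 23.2 RPM in AL mitochondria, against 60.5 RPM in the CR pool and 26.3 RPM in the AL pool, so the CR pool and CR replicate 1 were the highest for both names. The 5 erythroid marker names summed to 56.0 to 98.3 RPM in CR mitochondria and 55.5 to 94.98 RPM in AL mitochondria, against 84.5 RPM in the CR pool and 54.7 RPM in the AL pool. The erythroid names other than miR-451a were not highest in the CR pool. miR-486a-3p and miR-486a-5p were highest in AL replicate 2 (31.0 and 30.1 RPM, against 7.40 and 7.71 RPM in the CR pool). miR-144-3p and miR-144-5p were highest in AL replicate 1 (12.9 and 6.46 RPM, against 4.94 and 4.01 RPM in the CR pool). The part of blood cell RNA in the miR-33-5p level was not tested. In the 6 mitochondrial libraries alone miR-6516-5p (0.94), miR-137-3p (0.89), miR-451a (0.89), miR-21a-3p (0.87) and miR-434-3p (0.83) were closest.

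miR-378a-3p was most like miR-378c (r = 0.997), miR-10b-5p (0.96), miR-29a-5p (0.95), miR-143-3p (0.94) and miR-378b (0.94) over the 8 libraries. Within mitochondria miR-378c (0.99), miR-27a-5p (0.98) and the muscle names miR-1a-3p, miR-1b-5p (listed with the same values as miR-1a-3p) and miR-133a-3p (0.97, 0.97 and 0.96) were closest. miR-378a-5p was most like miR-221-5p (0.98), miR-361-3p (0.97), miR-340-3p (0.96), miR-690 (0.93) and miR-872-5p (0.93), which all fell in mitochondria. Within mitochondria it was closest to miR-690 (0.88), miR-669c-5p (0.85), miR-221-5p (0.84), the unannotated novel_314 (0.82) and miR-125a-3p (0.78). The 2 arms of miR-378a had r = -0.86 over the 8 libraries and -0.15 within mitochondria. miR-33-5p had r = -0.70 with miR-378a-3p and 0.46 with miR-378a-5p over the 8 libraries.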

How the data were processed

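Small RNA libraries of mouse liver mitochondria (3 CR, 3 AL) and whole liver (1 CR pool, 1 AL pool) were analysed. The deposited values are RPM per miRNA name: the authors scaled the reads assigned to listed names to 1000000 per library, with no length scaling although the columns are headed tpm, and left out names at 0, which were set to 0. Bowtie and the build mm9 are named in the submitters' processing notes. Their settings, the treatment of multiple hits and the rule for near-identical names are not given in the sources used here. All values (100%) were whole multiples of the smallest in their library, within 0.01 read, so reads were recovered.

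Names reaching 1 RPM in 3 or more libraries were tested by limma-trend on log2(RPM + 1), using limma 3.58.1 under R 4.3.3. P-values were adjusted by Benjamini-Hochberg across every tested name, with a threshold of 0.05. A fold change on this scale understates the change of low names. Alternatives on the recovered reads used edgeR 4.0.16, DESeq2 1.42.0 and limma-voom, and further alternatives other scalings, pseudocounts (0.5 and 5 RPM), filters (none, and 10 RPM) and each mitochondrial library left out. The fits were tested on simulated data, with limma-trend run there on TMM factors. The simulation therefore does not check limma-trend on the deposited scale, which gave the main results. It also gave pools and mitochondrial libraries the same spread. Exact permutation tests, correlations and plots used scipy 1.17.1, pandas 2.3.3 and matplotlib 3.10.9 under Python 3.11.15. Reads of 3, the floor for a count of 0, were worth 0.925 to 2.80 RPM. Hairpin positions and introns are those of GENCODE M21 (GRCm38), not of the mm9 alignment.

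The named miRNAs are the members, the other names of their hairpins and seed families, the 5 names most like each member, and, of each list, those past the threshold (some as counts only) and the 3 with the smallest p. The members and lists were chosen with earlier results of these data known.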

Additional observations from a re-analysis of the deposited data

How the results depend on the processing

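All 50 alternatives for the members' diet changes in mitochondria kept their direction, and none brought an adjusted p under 0.05. The log2 fold changes ran from -0.76 to -0.02 for miR-378a-3p, 0.02 to 0.37 for miR-378a-5p and 0.15 to 0.89 for miR-33-5p. The rise of miR-378a-3p in mitochondria over whole liver was called under all 16 alternatives (log2 1.98 to 2.67, adjusted p 6.58e-09 to 0.0108). miR-378a-5p crossed the threshold there with no filter on low values (-0.84, adjusted p = 0.0437), with at least 10 RPM in 3 libraries (-0.84, adjusted p = 0.0407) and without AL replicate 1 (-0.86, adjusted p = 0.0487). Its adjusted p ranged from 0.0407 to 0.429 over its alternatives, and leaving out 1 library gave -0.88 to -0.80. The filter changes how many names are tested; for the other changes the cause was not tested.

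The count of diet calls in mitochondria, 2, became 10 with no filter, 8 with at least 10 RPM, 5 with TMM factors, 5 with DESeq2 size factors, 4 with miR-122 left out of the total, 5 with limma-voom, 7 with edgeR and 11 with DESeq2. Leaving out 1 library gave 0 to 6: 0 without CR replicate 1, CR replicate 2 or AL replicate 2, 1 without CR or AL replicate 3, and 6 without AL replicate 1. The interaction count, 0, became 129 with no filter. That fit then also holds names at 0 in all mitochondrial libraries, and 1 pool per diet leaves such names no spread. The 129 calls are therefore no measure of how many names differ. The interaction of miR-378a-3p (0.12) turned to -0.17 without CR replicate 2 and -0.26 without AL replicate 1, within -0.26 to 0.49 over the libraries left out. That of miR-378a-5p (-0.04) turned to 0.14 with TMM factors, 0.033 with DESeq2 size factors, 0.087 without miR-122, 0.12 with limma-voom, 0.15 with edgeR, 0.047 with DESeq2 and 0.035 without CR replicate 1, within -0.13 to 0.035 over the libraries left out. The pool ratio of miR-378a-3p was 0.802 with TMM factors and 0.820 with DESeq2 size factors. Both lie above its interval of 0.688 to 0.721, which covers counting error only.

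CR and AL replicates of the same number correlated at 0.36, 0.08 and 0.11 in their deviations from the group means. Those of different numbers correlated at -0.29 to 0.22, and CR replicate 3 correlated best with AL replicate 2. The labels do not say whether libraries of the same number share a batch, and these few correlations cannot settle it. With the replicate number as a block there were 3 diet calls, and none of the members was called: miR-378a-3p had -0.39 (adjusted p = 0.554), miR-378a-5p 0.11 (adjusted p = 0.868) and miR-33-5p 0.49 (adjusted p = 0.626). miR-33-5p has no value at a minimum of 10 RPM, which it does not reach in 3 libraries. Its 6 to 18 reads in a mitochondrial library limit any statement on it.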
